A study of Mus musculus with 6 samples.

Results

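The genes described here are 38 genes of the cell division programme, taken as a list of symbols from the per-mouse expression table of the ventricle. All 38 were found among the 24239 rows of that table. They comprised 3 D-type cyclins, 2 E-type cyclins, 2 transcription factors, 11 replication genes, 10 genes of the mitotic cyclins, kinases and checkpoint, and 10 genes for chromosome and spindle proteins. The study compared ventricles of male C57BL/6 mice, 8 to 10 weeks old, that were paced in the atrium with ventricles of mice that received a sham intervention without pacing. A bipolar catheter in the esophagus paced the atrium daily for 45 min with a cycle length of 80 ms, between start and end periods of 3 min at 120 ms. There were 8 days of pacing, of which the first 5 and the last 3 were separated by 2 days without it. Each group held 3 mice, described by the series as separate animals, and no genetic alteration was named for either group. Whole ventricular tissue was used, so each value is a mix over the cell types of the ventricle.

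The cell cycle is driven by cyclins, which activate cyclin-dependent kinases in turn. D-type cyclins act early and respond to growth signals, E-type cyclins and E2F factors open the phase of DNA synthesis, and A-type and B-type cyclins with Cdk1 drive mitosis. Most cardiomyocytes of the adult mouse have left the cycle, so that RNA of many mitotic genes in adult ventricle is scarce and may come from any dividing cell of the tissue. Some further genes with a part in mitosis, given at the end, stood at far higher levels.

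Expression was given as FPKM, that is fragments per kilobase of transcript and scaled to the fragments of the library, a level that can be compared between genes. The effective depth, recovered from the steps between low FPKM values, was 6276000 to 8908000 fragments per mouse. Ventricular cardiomyocyte markers were present in every mouse, 8 of 8, with summed FPKM of 66870 to 87170 in sham and 63700 to 65730 in paced mice. Atrial cardiomyocyte markers summed to 70.5 to 5288 in sham and 2405 to 7344 in paced mice. Lung epithelial markers summed to 0.452 to 4.95 in sham mice, to 2.11 in pacing 1, to 310 in pacing 2 and to 1687 in pacing 3, and Sftpa1 and Sftpd were listed at the floor of 0.01 in every sham mouse. Summed erythroid markers were 70.5 to 85.7 in sham and 160 to 216 in paced mice. The part of these markers in the results below was not tested.

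Levels of the 38 genes spanned a wide range. Pcna, the sliding clamp of the replication fork, had the highest mean over the 6 mice, 43.8 FPKM, and Bub1, a kinase of the spindle checkpoint, had the lowest, 0.140 FPKM. A mean of at least 1 FPKM was required for the test on log2(FPKM + 1), and 16 of the 38 genes passed it. Of the 22 others, Cdc20 and Tyms came closest with 0.984 FPKM each, and the lowest gene that passed was Ccne1 with 1.03. By group, the test covered 3 of 3 D-type cyclins, 1 of 2 E-type cyclins, 0 of 2 transcription factors, 9 of 11 replication genes, 1 of 10 mitotic genes and 2 of 10 chromosome and spindle genes. The other genes were examined by their values in each mouse and by a second fit on log2(FPKM + 0.1) over 15045 genes with a mean of at least 0.1 FPKM, which held all 38.

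No difference between paced and sham ventricles passed the test for any of the 16 tested genes. With limma and Benjamini-Hochberg adjustment over 11994 genes, 0 of 16 passed an adjusted p of 0.05 and the lowest adjusted p was 0.399, for Ccnd1. Over all genes tested, 0% were called higher and 0% lower. At an unadjusted p under 0.05, 0 of the 16 lay higher in paced mice, where 5.17% of all genes did, and 1 lay lower, where 3.69% of all genes did. In either direction this was 1 of 16, beside 8.85% of all genes. The second fit called 0 of 38 genes at an adjusted p of 0.05, beside 0% of its 15045 genes higher and 0% lower. Its unadjusted p was under 0.05 for E2f1 on the higher side (5.67% of all genes) and for Ccnd1 on the lower side (3.24%), 2 of 38 in either direction beside 8.91%. The median log2 fold change of the 16 genes was -0.07, beside -0.01 over all genes tested, with 7 positive values (48.2% of all genes) and 9 negative values (51.8%). In the second fit 17 of 38 were positive, where 51.3% of all genes were. In the authors' deposited table, 0 of the 38 genes were called, beside 1.38% of 24341 rows, and the lowest q-value among them was 0.170, for Ccnd1.

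**Figure D1:**
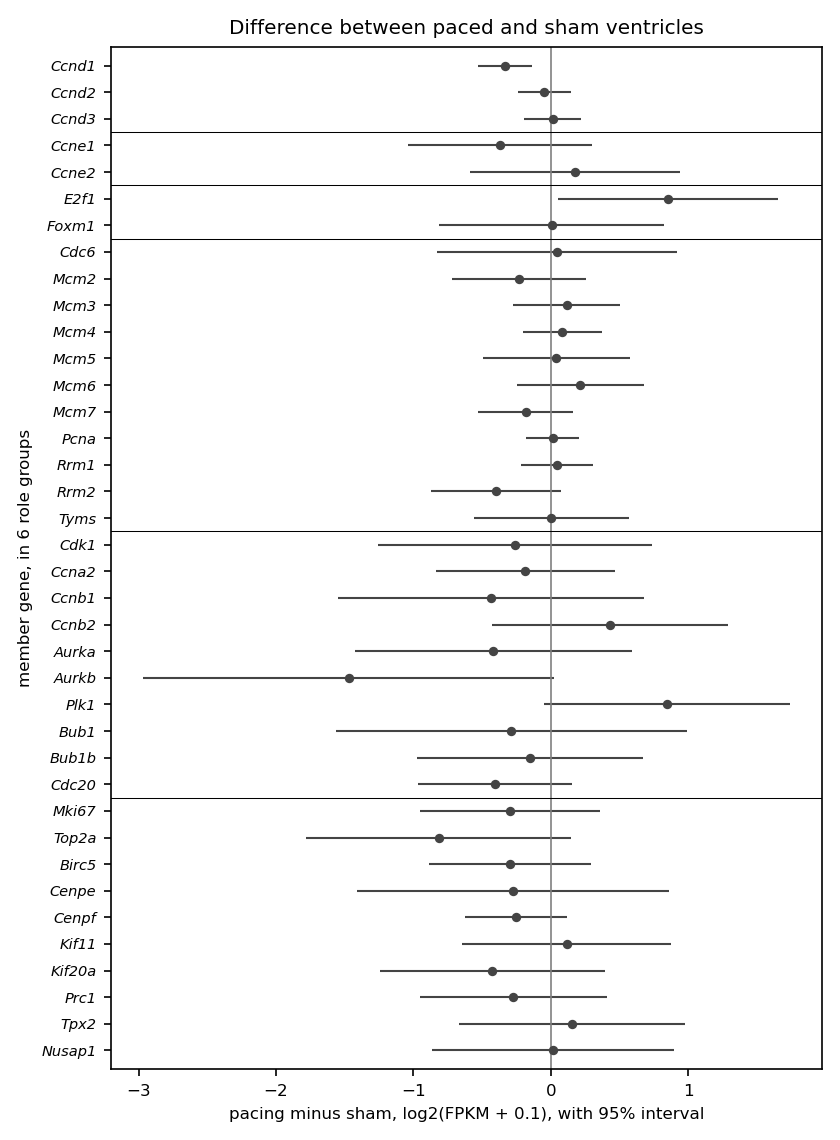
Difference between paced and sham ventricles for the 38 genes on the log2(FPKM + 0.1) scale, from the fit over 15045 genes. Points are pacing minus sham and bars are unadjusted 95% intervals, grouped by role from the D-type cyclins at the top to chromosome and spindle genes at the bottom. The intervals of Ccnd1 and E2f1 leave out 0, and Aurkb has the widest interval.

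The D-type cyclins, which carry growth signals to Cdk4 and Cdk6, were together with Pcna the highest of the 38 genes. Ccnd1, at chr7:144929931-144939925 of mm10, gave 23.6, 20.3 and 22.2 FPKM in sham mice and 16.9, 17.6 and 17.8 in paced mice. All 3 paced values lay below all 3 sham values, as they did for 6.97% of the 11994 genes. The group means were 22.04 ± 1.62 and 17.4 ± 0.456 (SD, n = 3 each), a log2 fold change of -0.32 with a standard error of 0.08 and a 95% interval of -0.51 to -0.13. The unadjusted p of limma was 0.00458 and the adjusted p was 0.399, so the difference did not pass the test over all genes. The values rested on about 487 to 658 fragments per mouse. In whole tissue, fewer cells that express a gene and less of its RNA per cell cannot be told apart. Ccnd1 was lower in paced mice under each of the 21 settings of the analysis. In the settings that kept several mice per group, its unadjusted p by limma was under 0.05 and its adjusted p was 0.227 to 0.811. The settings refit the same mice or part of them, so they are not separate tests. Ccnd1 was also the gene with the lowest adjusted p of those tested among the 38. The like sign across settings therefore shows little dependence on the processing and is no further evidence for a difference.

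The other D-type cyclins stood apart from Ccnd1 only by their values, as the difference between the 3 genes was not tested. Ccnd2 gave 20.1, 19.98 and 19.8 FPKM in sham mice and 17.9, 19.8 and 20.4 in paced mice, and the groups overlapped. Its log2 fold change was -0.05 with a 95% interval of -0.23 to 0.14, and it turned to 0.03 with the libraries scaled to the same sum. Ccnd3 gave 35.7, 29.9 and 31.9 FPKM in sham mice and 34.3, 33.1 and 30.8 in paced mice. Its groups overlapped too, and its log2 fold change was 0.01 with a 95% interval of -0.19 to 0.22, turning to -0.011 when the libraries were centred on their medians. The exons of Ccnd1 and Ccnd3 overlap exons of LTO1 and Bysl on the opposite strand, and how the counting used strand is not given in the sources used here.

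**Figure D2:**
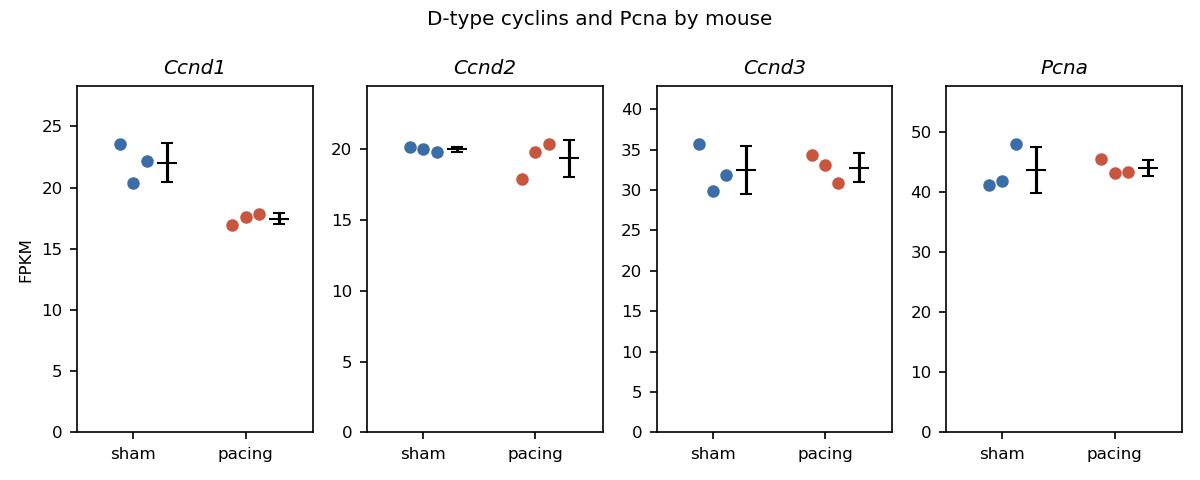
FPKM of the 3 D-type cyclins and of Pcna, with 1 point per mouse and the group mean ± SD (n = 3) as a bar beside the points. The 3 paced values of Ccnd1 lie below the 3 sham values, and the groups overlap for the other genes.

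E-type cyclins, which activate Cdk2 at the start of DNA synthesis, were low and overlapped between groups. Ccne1 gave 1.22, 1.27 and 0.980 FPKM in sham mice and 0.553, 1.154 and 1.003 in paced mice, and pacing 1 was the lowest. Its log2 fold change was -0.19 with an adjusted p of 0.789 by limma. Ccne2, which had a mean below 1 FPKM, was 0.591 ± 0.178 in sham and 0.682 ± 0.214 FPKM in paced mice (SD, n = 3 each).

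E2f1, the transcription factor that activates genes of DNA synthesis, was the gene with the highest fitted difference among the 38. It gave 0.253, 0.251 and 0.252 FPKM in sham mice and 0.817, 0.459 and 0.399 in paced mice, with no overlap and the highest value in pacing 1. These values are worth 5, 5 and 4 fragments in the sham mice and 17, 9 and 9 fragments in the paced mice. On the log2(FPKM + 0.1) scale the difference was 0.85 with a standard error of 0.35, an unadjusted p of 0.0395 and an adjusted p of 0.549 by limma. The exact permutation test, two-sided, over the 20 ways to divide the 6 mice gave p = 0.1, the smallest it can give here. Any gene without overlap gives this p, so it adds nothing to the lack of overlap, which 13.5% of the 15045 genes shared. Foxm1, the factor that drives mitotic genes, was 0.339 ± 0.134 FPKM in sham and 0.329 ± 0.0375 in paced mice.

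Replication genes ranged from 0.206 FPKM for Cdc6 to 43.8 for Pcna in mean level, and 0 of the 9 that were tested passed. Their median log2 fold change was 0.02, with 6 positive and 3 negative values. Pcna gave 41.2, 41.8 and 48.0 FPKM in sham mice and 45.5, 43.1 and 43.3 in paced mice, so that the paced values lay inside the sham range. Its log2 fold change was 0.01 with a 95% interval of -0.18 to 0.21, and it turned to -0.013 with median centring.

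Mcm2 to Mcm7 encode the 6 subunits of the helicase that unwinds DNA at the fork. Their summed FPKM was 26.4, 21.7 and 24.2 in sham mice and 22.6, 25.0 and 24.1 in paced mice, with overlap. Mcm7, the highest of them, gave 7.30, 8.18 and 7.72 FPKM in sham mice and 5.38, 7.70 and 7.55 in paced mice, and pacing 1 lay below the 5 other mice. Its log2 fold change was -0.16 with an adjusted p of 0.772 by limma, and without pacing 1 it was -0.017. Over the 6 subunits the log2 fold changes ran from -0.18 for Mcm2 to 0.18 for Mcm6, 4 positive and 2 negative. Single mice moved these values: leaving out 1 mouse each gave -0.36 to -0.07 for Mcm2 and 0.03 to 0.39 for Mcm6. The sign of Mcm3 turned without pacing 2 and that of Mcm5 without sham 2 or pacing 1, or with median centring.

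The remaining replication genes make nucleotides or load the helicase. Rrm1, the large subunit of ribonucleotide reductase, gave 6.05, 6.45 and 5.79 FPKM in sham mice and 5.81, 6.84 and 6.24 in paced mice. Rrm2, its small subunit, had the most negative difference of the replication genes, with 2.54, 2.14 and 1.74 FPKM in sham mice and 1.41, 1.47 and 1.90 in paced mice. The groups overlapped through sham 3 and pacing 3, and the log2 fold change was -0.27 with a standard error of 0.15 and an adjusted p of 0.649 by limma. Tyms, the thymidylate synthase, was 0.989 ± 0.224 in sham and 0.978 ± 0.103 FPKM in paced mice. Cdc6, which loads the helicase at origins, was 0.202 ± 0.0466 and 0.211 ± 0.0414 FPKM.

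Promoters of mitotic genes are known for a cell cycle element and CCAAT boxes, and those of replication genes for E2F sites, so a few are shown for the groups described apart here. RefSeq windows of GRCm38.p6, from 250 bases before to 50 bases after the start of a gene, were matched for 29 of the 38 genes. The letters TTTGAA, known as the cell cycle homology region, were found on either strand in 11 of 16 mitotic and chromosome genes (68.8%), in 1 of 10 replication genes and in 20.2% of 27025 genes. The letters CCAAT were found in 14 of 16 (87.5%), 8 of 10 and 41.1%. At least 1 of the E2F words TTTCGCGC, TTTGGCGC, TTTCCCGC and TTTGCCGC was found in 1 of 16, in 5 of 10 and in 2.6% of all genes. Such matches describe letters and do not show that a factor binds. The 150 bases before the start are printed 5′ to 3′ on the strand of the gene, with TTTGAA or its reverse complement in capitals for the first 3 genes and the E2F words, which overlap in part, in capitals for Mcm6.
Cdk1, chr10:69352913-69353062, minus strand: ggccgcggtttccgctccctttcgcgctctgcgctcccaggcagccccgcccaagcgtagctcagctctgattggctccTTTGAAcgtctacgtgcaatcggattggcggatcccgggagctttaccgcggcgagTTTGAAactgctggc
Mki67, chr7:135716380-135716529, minus strand: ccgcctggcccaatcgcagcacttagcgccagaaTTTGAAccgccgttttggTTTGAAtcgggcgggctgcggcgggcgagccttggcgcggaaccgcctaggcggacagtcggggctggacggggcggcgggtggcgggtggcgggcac
Top2a, chr11:99024190-99024339, minus strand: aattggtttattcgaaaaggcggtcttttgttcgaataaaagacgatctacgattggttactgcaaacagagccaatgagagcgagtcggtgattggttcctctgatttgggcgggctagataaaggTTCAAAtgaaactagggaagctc
Mcm6, chr1:128359706-128359855, minus strand: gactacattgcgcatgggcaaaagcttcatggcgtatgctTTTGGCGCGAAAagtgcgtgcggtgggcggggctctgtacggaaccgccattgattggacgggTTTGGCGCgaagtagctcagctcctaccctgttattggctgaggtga

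Cdk1 and its cyclins, the engine of mitosis, were near or below 1 FPKM. Ccna2, the A-type cyclin and the highest of the mitotic genes, gave 1.501, 1.49 and 1.39 FPKM in sham mice and 1.68, 0.781 and 1.53 in paced mice. The paced mice were both above and below the sham mice, and the log2 fold change was -0.10 with an adjusted p of 0.906 by limma. Without pacing 2 it turned to 0.084, and without pacing 2 and pacing 3 to 0.13. Cdk1 gave 1.05, 0.282 and 0.651 FPKM in sham mice and 0.413, 0.383 and 0.667 in paced mice. The B-type cyclin Ccnb1 gave 0.655, 0.177 and 0.371 in sham mice and 0.288, 0.120 and 0.365 in paced mice, so that sham 1 was highest for both Cdk1 and Ccnb1. Ccnb2, the other B-type cyclin, gave 0.745, 0.277 and 0.811 in sham mice and 0.720, 0.939 and 0.735 in paced mice, with the highest value in pacing 2.

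The mitotic kinases rested on few fragments. Fragments, unlike FPKM, are not scaled for the depth of the library. Aurkb, the kinase of the chromosomal passenger complex, gave 18, 5 and 3 fragments in sham mice and 2, 0 and 5 in paced mice. Its FPKM was 1.29, 0.354 and 0.267 in sham mice and 0.138, 0.01 and 0.313 in paced mice. Sham 1 held most of the fragments, and the groups overlapped through sham 3 and pacing 3. The 0 fragments of pacing 2, listed at the floor, allow up to 0.217 FPKM, counting 3 fragments. This was 1 of 228 values of the 38 genes at the floor. The fitted difference of Aurkb was -1.47 with a standard error of 0.65 and an adjusted p of 0.557 by limma.

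Plk1, the polo-like kinase that acts in spindle assembly, lay in the other direction. It gave 0.126, 0.124 and 0.313 FPKM in sham mice and 0.364, 0.380 and 0.441 in paced mice, worth 2, 2 and 4 fragments against 6, 6 and 8. The groups did not overlap, and the fitted difference was 0.84 with a standard error of 0.39 and an adjusted p of 0.581 by limma. The exact permutation p was 0.1, as for any gene without overlap. Aurka, the spindle pole kinase, gave 14, 6 and 4 fragments in sham mice and 7, 3 and 8 in paced mice. Checkpoint genes Bub1b and Cdc20 gave 9 to 26 and 12 to 15 fragments in sham mice, and 12 to 17 and 8 to 15 in paced mice. In FPKM, Bub1b gave 0.951, 0.470 and 0.410 in sham mice and 0.600, 0.552 and 0.385 in paced mice. Cdc20 gave 1.029, 1.175 and 1.182 FPKM in sham mice and 0.841, 0.638 and 1.041 in paced mice. The groups of Cdc20 overlapped only through sham 1 and pacing 3. The recovered fragments were whole within 0.15 of a fragment for 12 of the 38 genes, 10 of them below 1 FPKM. For each gene the transcript length that came closest to whole fragments was used, so this share is no separate check.

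In all, the groups did not overlap for 2 of the 38 genes on the higher side, E2f1 and Plk1, and for 1 on the lower side, Ccnd1. Over all 15045 genes with a mean of at least 0.1 FPKM, 7.17% lay without overlap on the higher side and 6.29% on the lower side. The counts of 2 and 1 of 38 were near or below these shares.

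**Figure D3:**
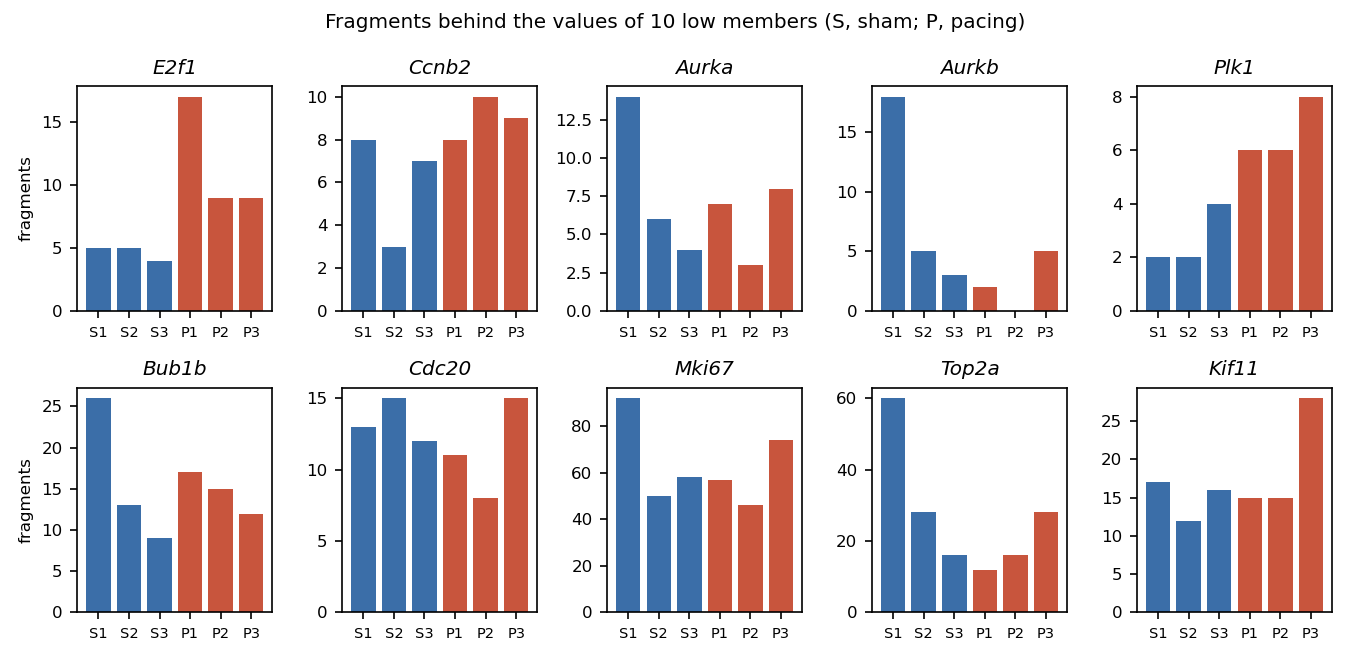
Fragments recovered from FPKM for 10 genes with a mean below 1 FPKM, in 3 sham mice (S, blue) and 3 paced mice (P, red), with a separate axis for each gene. The fragments are not scaled for the depth of each library. E2f1 and Plk1 have more fragments in each paced mouse than in any sham mouse, and sham 1 is the tallest bar for Aurkb, Aurka, Bub1b, Mki67 and Top2a.

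Genes for chromosome and spindle proteins were highest in sham 1 for 8 of 10. Cenpf, a kinetochore protein and the highest of this group, gave 4.03, 4.60 and 3.57 FPKM in sham mice and 3.66, 2.86 and 3.68 in paced mice, with a log2 fold change of -0.21 and an adjusted p of 0.684 by limma. Birc5, also known as survivin, gave 1.98, 1.57 and 1.18 in sham mice and 1.54, 0.969 and 1.28 in paced mice. Both genes overlapped between groups. Mki67, whose protein Ki-67 marks dividing cells, gave 1.19, 0.639 and 0.934 FPKM in sham mice and 0.711, 0.599 and 0.838 in paced mice. Top2a, the topoisomerase that untangles chromosomes, gave 1.52, 0.702 and 0.505 in sham mice and 0.294, 0.409 and 0.622 in paced mice, worth 60, 28 and 16 fragments against 12, 16 and 28. Its fitted difference was -0.82 with a standard error of 0.42 and an adjusted p of 0.632 by limma, and sham 3 lay below pacing 3. The motor Kif11 gave 0.468, 0.327 and 0.549 FPKM in sham mice and 0.399, 0.416 and 0.675 in paced mice. These values are worth 12 to 17 fragments in sham mice and 15 to 28 in paced mice. Kif20a, Prc1, Tpx2, Nusap1 and Cenpe, which act in the spindle, its midzone or the kinetochore, had sham means of 0.172 to 0.836 FPKM and paced means of 0.125 to 0.660, all with overlap.

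Sham 1 held the highest value for 14 of the 20 mitotic and chromosome genes (70.0%) and for 21 of all 38 (55.3%). Among all genes with a mean of at least 0.1 FPKM it held the highest value for 15.1%, and among those of 0.1 to 2 FPKM for 19.9%. For replication genes it was highest in 4 of 11. The summed FPKM of the 20 genes was 22.1 in sham 1, 14.8 in sham 2 and 15.0 in sham 3, and 14.6, 11.6 and 15.9 in the paced mice. The sums of sham 2 and sham 3 thus lay inside the range of the paced mice, and pacing 2 had the lowest sum. Pacing 2 held the lowest value for 9 of the 20 genes (45.0%). Among all genes with a mean of at least 0.1 FPKM it did so for 12.8%, and among those of 0.1 to 2 FPKM for 10.9%. Among 35 further genes of the spindle, chromosomes and cytokinesis, sham 1 was highest for 20 (57.1%). Among the 69 further cell division genes of any role with a mean of 0.1 to 2 FPKM, it was highest for 25 (36.2%). Counting over genes treats them as separate, although they come from 1 library per mouse and move together.

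**Figure D4:**
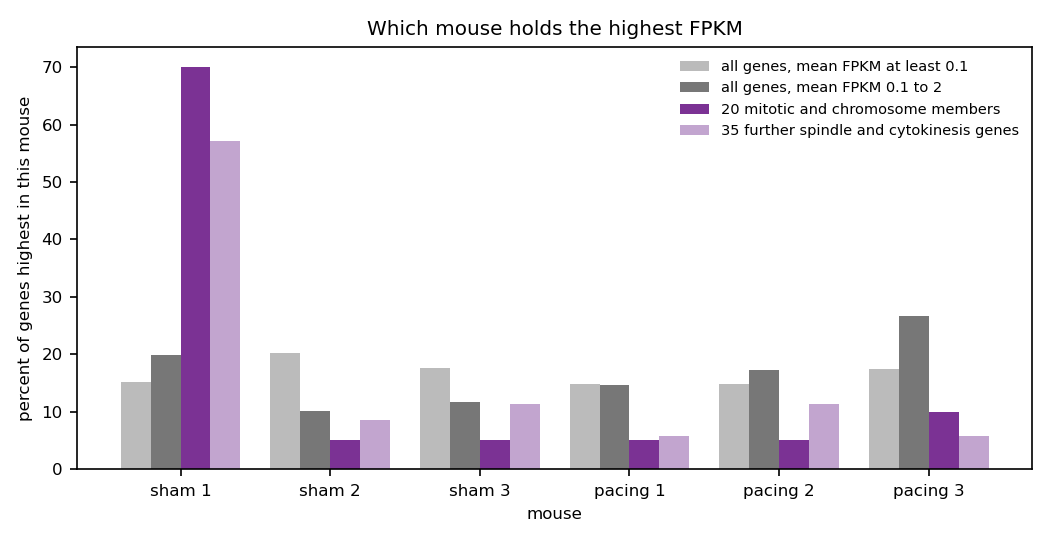
Percent of genes whose highest FPKM of the 6 mice fell in each mouse, for all genes with a mean of at least 0.1 FPKM, all genes of 0.1 to 2 FPKM, the 20 mitotic and chromosome genes, and 35 further spindle and cytokinesis genes. Sham 1 holds 70.0% and 57.1% of the last 2 sets, beside 15.1% and 19.9% of the first 2.

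The count of mitotic and chromosome genes that lay lower in paced mice was also taken without sham 1. That mouse was chosen because it was highest for 14 of these 20 genes. Leaving it out lowers the sham level of these genes by that choice, so no conclusion is drawn from the change. No other single mouse was left out in this fit. With all 6 mice, 15 of the 20 lay lower in paced mice in the fit on log2(FPKM + 0.1), where 48.7% of all genes did, with a median log2 fold change of -0.27. Without sham 1, 12 of the 20 lay lower and the median was -0.05. Over all 38 genes, 21 lay lower with a median of -0.17, and without sham 1 the numbers were 20 and -0.02. Without pacing 2 and pacing 3, the mice with lung markers, 15 of the 20 lay lower with a median of -0.19. In each of these fits 0 of the 38 genes passed an adjusted p of 0.05 by limma.

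Markers of several cell types were compared beside this, whether or not these cells divide in the heart. Summed leukocyte markers were 59.7 FPKM in sham 1, 36.7 in sham 2 and 40.3 in sham 3, and 90.3, 46.3 and 62.9 in the paced mice, and 12 of 13 were highest in sham 1 among the sham mice. Of these 13 markers 10 had a higher mean in paced mice, and Cd3e, Cd8a and Cd4 had a lower one. S100a8 and S100a9 gave 13.8 and 23.6 FPKM of the sum of pacing 1. Summed endothelial markers were 234, 217 and 192 in sham mice and 178, 204 and 196 in paced mice, with 1 of 5 higher in the paced mean. Fibroblast markers summed to 793, 655 and 677 in sham mice and to 790, 873 and 1083 in paced mice. Smooth muscle markers summed to 86.8, 42.9 and 46.6 in sham mice and to 119, 80.7 and 109 in paced mice. Adipocyte markers summed to 1584 to 1763 in sham and 1556 to 2083 in paced mice, most of it Fabp4 (means 1648 and 1694). All 5 adipocyte markers had a higher mean in paced mice. The sham and paced means were 10.4 and 45.9 FPKM for Adipoq, 5.23 and 27.1 for Cidec, 2.81 and 10.8 for Plin1, and 0.199 and 1.13 for Lep. Sham 1 was the highest sham mouse for most markers of other sets too: 5 of 5 for fibroblasts and 3 of 3 for smooth muscle. The same held for 4 of 5 for endothelium, 4 of 5 for adipocytes and 3 of 3 for atrial cardiomyocytes. Of the lung epithelial markers, Sftpc, Sftpb, Scgb1a1 and Ager were highest in sham 1 among the sham mice. Sftpc was close in sham 1 and sham 3 (1.005 and 0.999 FPKM), and Sftpa1 and Sftpd were at the floor in every sham mouse. For 1 of 8 ventricular cardiomyocyte markers and 1 of 5 erythroid markers, sham 1 was the highest sham mouse. The part of these cell types in the level of the mitotic genes was not tested.

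**Figure D5:**
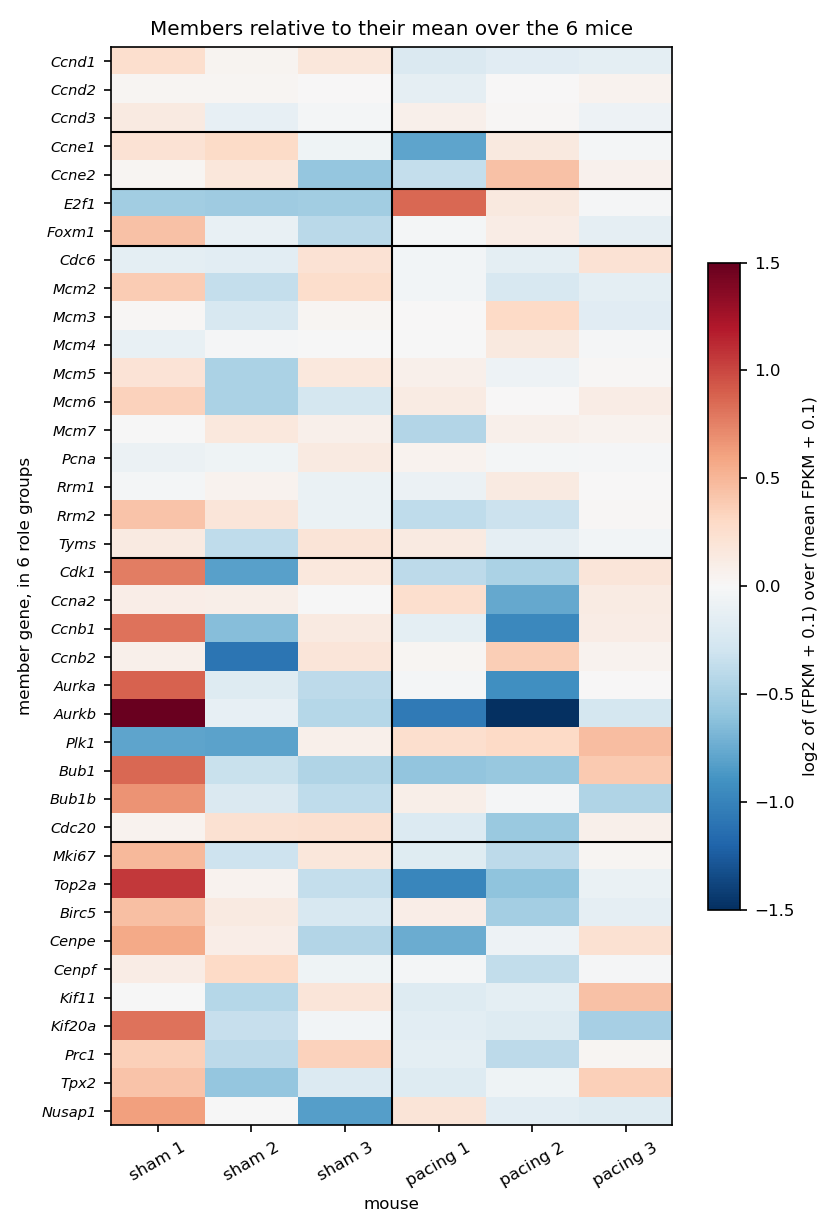
FPKM of the 38 genes in each mouse relative to the mean over the 6 mice, as log2 of (FPKM + 0.1) over (mean FPKM + 0.1), with colours limited to -1.5 and 1.5. Sham 1 is red for most genes of the lower 2 groups, E2f1 is blue in all 3 sham mice, and Ccnd1 is blue in all 3 paced mice.

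A further 144 genes of the same programme were listed by role, of which 143 matched the table and 84 were tested. By limma 0 of the 84 passed an adjusted p of 0.05, 2 lay higher and 4 lower at an unadjusted p under 0.05, beside 5.17% and 3.69% of all genes, and the median log2 fold change was -0.03. The groups did not overlap for 5 of 143 on the higher side and 12 on the lower side, beside 7.17% and 6.29% of all genes with a mean of at least 0.1 FPKM. These counts lay below and near the shares of all genes. Gins2, a subunit of the fork complex that works with the Mcm helicase, gave 0.441, 0.145 and 1.10 FPKM in sham mice and 1.99, 1.93 and 1.42 in paced mice. It had no overlap, a log2 fold change of 0.87 with a standard error of 0.23, and an adjusted p of 0.399. Fbxo5, an inhibitor of the anaphase-promoting complex, had a log2 fold change of 0.48, the checkpoint gene Mad2l1 of 0.25 and the kinase Wee1, which restrains Cdk1, of 0.16. The values of these 3 did not pass, with adjusted p of 0.553, 0.619 and 0.678 by limma. Wee1, like Gins2, was among the 5 further genes without overlap on the higher side.

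On the lower side stood Ube2c, the ubiquitin-conjugating enzyme of the anaphase-promoting complex, with 2.34, 1.66 and 2.08 FPKM in sham mice and 1.30, 0.676 and 1.47 in paced mice. Its log2 fold change was -0.51 with an adjusted p of 0.493 by limma. Cdkn1c, the Cdk inhibitor p57, was 15.5 ± 2.03 FPKM in sham and 12.2 ± 1.78 in paced mice, a log2 fold change of -0.33 with an adjusted p of 0.540. Pola2, a subunit of DNA polymerase alpha, and Gmnn, the inhibitor of helicase loading, had log2 fold changes of -0.27 and -0.22. Their adjusted p was 0.552 and 0.554 by limma. Ube2c, Pola2 and Gmnn were among the 12 further genes without overlap on the lower side, and Cdkn1c was not. The other tested Cdk inhibitors lay close to 0, at -0.05 for Cdkn1a, -0.01 for Cdkn1b, 0.14 for Cdkn2c and 0.05 for Cdkn2d. None of these passed the test over all genes.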

How the data were processed

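Stranded polyA libraries of 6 ventricles were sequenced, per the labels' protocols. The submitters' processing notes list Cufflinks and Cuffdiff, Bowtie2 2.2.6, TopHat2 2.1.0 and FastQC 1.0.0, with mm10 as the build. For annotation and strand setting nothing is given in the sources used here. FPKM per gene and mouse were deposited by the authors with 0.01 as floor. Their comparison table, per the file headers, holds a log2 fold change, a call and a q-value (an adjusted p-value). The log2 column, which holds spreadsheet errors, was not used for results. FPKM was tested with limma 3.58.1 in R 4.3.3 (trend, two-sided, Benjamini-Hochberg) on log2(FPKM + 1) over 11994 genes with a mean of at least 1, because FPKM is not a count. This scale understates changes of low genes. A fit at a mean of 0.1 with pseudocount 0.1 covered the low genes. 1 gene with a failed value was left out.

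To recover fragments, the depth and a shortening of the length were chosen to bring low values of 644 genes closest to whole fragments. The low values numbered 52 to 61 per mouse. At a length shortened by 166 bases, 100% of them were whole within 0.05 of a fragment. As the choice aimed at whole fragments, this share is no separate check. The limma fit for genes with a mean of at least 1 FPKM was tested on simulated data. Replicates held different values, with at most 0.0131% of values identical between any pair of mice. The text gives all 6 values for D-type cyclins, genes with an unadjusted p under 0.05 or no overlap, and the highest 1 to 3 of each role group, with some others added. Of the further genes it names the 4 with the smallest p in each direction and the tested Cdk inhibitors. The 38 genes, the lists and the motifs were chosen with earlier results of these data known. Exons of 9 of the 38 genes overlap a protein-coding gene on the opposite strand (Ccna2, Ccnd1, Ccnd3, Ccne2, Cdc20, Kif20a, Mcm7, Nusap1 and Prc1). Exons of Foxm1 overlap the protein-coding genes Gm44596 and Tex52 on the same strand. Those of Plk1 and Ccnd2 overlap genes of other types on the opposite strand, and those of Mcm7 and Top2a small RNA genes on the same strand. Pseudogenes are named after 5 genes (Ccnb1, Ccnb2, Ccnd3, Pcna and Tyms). The values of all these genes are uncertain. Alternatives covered pseudocounts, filters, scaling, eBayes settings, the replicate block and leaving out mice.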

Additional observations from a re-analysis of the deposited data

How the results depend on the processing

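No setting called any of the 38 genes at an adjusted p of 0.05 by limma. The median log2 fold change of the tested genes, -0.07, was -0.12 with pseudocount 0.1, -0.17 with that pseudocount and a filter at 0.1 FPKM, 0.012 with a filter at 5 FPKM, -0.013 with libraries scaled to the same sum (all genes 0.06), -0.13 with quantile normalization, and -0.13 to -0.020 leaving out 1 mouse each. Dividing by the library median gave 2 genes without overlap on the lower side, Ccnd1 and Cdc20, in place of 1, and scaling to the same sum gave 3 on the higher side, E2f1, Plk1 and Mcm4, in place of 2. Differences close to 0 changed sign. Scaling to the same sum turned Ccnd2 to 0.028. Median centring turned Ccnd3 to -0.011, Mcm5 to -0.0072 and Pcna to -0.013. Quantile normalization turned Mcm5 to -0.067, and array weights turned Mcm5 to -0.010 and Pcna to -0.024. Without pacing 2 and pacing 3, Rrm1 was -0.058 and Ccna2 0.13. Leaving out 1 mouse each gave ranges of -0.082 to 0.0066 for Ccnd2, -0.043 to 0.082 for Ccnd3, -0.0076 to 0.17 for Mcm3, -0.11 to 0.090 for Mcm5, -0.028 to 0.080 for Pcna, -0.014 to 0.087 for Rrm1 and -0.21 to 0.084 for Ccna2. Without a change of sign the ranges were -0.24 to -0.017 for Mcm7 and -0.30 to -0.08 for Birc5. They were -0.28 to -0.11 for Cenpf and -0.37 to -0.18 for Rrm2. For Ccne1 the range was -0.29 to -0.05. It does not cover the fits without sham 1 or without sham 2, in which the mean of Ccne1 fell below the filter. The cause of these changes was not tested. With the replicate number as a block, 0 of the 38 genes and 7 of all genes were called, beside 0 without it. Deviations from the group means had correlations of -0.125, -0.0225 and -0.0201 for mice with the same number. For mice with unlike numbers they were -0.1 to 0.113. With 3 mice per group these values cannot decide whether mice with the same number were handled together. Without sham 1, 99 genes were called higher and 1 lower over all genes, none of them among the 38. Few fragments limit the low genes, 0 to 18 per mouse for Aurkb and 2 to 8 for Plk1. Fits without sham 1, or without pacing 2 and pacing 3, on the low genes were chosen after seeing the data.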

Other observations

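Some further genes of the mitotic and licensing lists stood far above the mitotic genes described in the report, chosen here after their values were seen. Pttg1, the securin that restrains separase until anaphase, had a mean of 190.02 FPKM over the 6 mice, with 189.7 ± 14.7 in sham and 190.4 ± 9.83 in paced mice (SD, n = 3 each). Ube2s, a ubiquitin-conjugating enzyme of the anaphase-promoting complex, had a mean of 81.9 FPKM and Cenpa, the histone of the centromere, of 38.03. Gmnn had a mean of 63.0 FPKM. Ccna2 and Cenpf, the highest of their groups in the report, had means of 1.39 and 3.73 FPKM. The log2 fold changes were 0.0071 for Pttg1, -0.12 for Ube2s and -0.09 for Cenpa, with adjusted p of 0.988, 0.667 and 0.834 by limma. Overlapping genes and pseudogenes were not checked for these genes.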
